A study of Mus musculus with 9 samples.

Results

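The genes described here are 49 genes of mitosis and chromosome segregation: the cyclins and kinases that drive cells into division, the kinetochore, spindle checkpoint and spindle genes that move chromosomes, the condensins that pack them, and the genes that end division. They were taken as a named list of gene symbols; the rule uses no measured value, but the list was drawn up with earlier results of these data known. Of the 49, 48 had at least 1 probe set (a group of short probes for a transcript) annotated with exactly 1 gene symbol, and all 48 passed the filter on low values. Ccnb1 (cyclin B1) lay only on probe sets annotated with several symbols, so it has no value here. The arrays carried 18194 such genes in all, of which 12826 were tested.

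RNA was measured in FrII cells on 9 Affymetrix mouse arrays, 3 per group. FrII cells are early myeloid progenitors, sorted as lineage-negative and Sca-1-negative with c-Kit present and Mac1 low or present, and their tissue is given as blood. The first group was wild type C57/BL6 mice, the second mice with a leukaemia that overexpresses Sox4, a transcription factor, and the third K/L leukaemic mice, in which both alleles of Cebpa, the gene of the myeloid transcription factor C/EBPα, are mutated. All groups are given as strain C57/BL6 and an age of 2 to 4 months. Leukaemic cells were also sorted as CD45.1-negative and CD45.2-positive; the sample descriptions of the wild type cells do not name that gate, although the extraction protocol does. How Sox4 was overexpressed, and which Cebpa alleles K and L stand for, is not given in the sources used here. The labels number the mice 1 to 3 in each group but do not say that each array was made from a single animal, so p-values cover only the spread among 3 samples a group, which may be technical in part.

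A dividing cell first activates Cdk1 with cyclin A or B, condenses its chromosomes, and attaches them through kinetochores to the microtubules of the spindle. The spindle checkpoint holds the cell until every kinetochore is attached; the anaphase-promoting complex (APC/C) then has cyclins and securin degraded, separase cuts cohesin, and the sister chromatids part. Most of these genes are transcribed late in the cell cycle, in G2 and M phase, and are kept low in resting cells. Their late transcription is known to run through the cell cycle homology region (CHR), a promoter element bound by complexes that include B-Myb (Mybl2) and FoxM1, often beside a CCAAT box bound by NF-Y. In bone marrow, progenitors divide often, and mature granulocytes no longer divide.

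Promoters of the listed genes were searched for these elements, and 4 are shown: those of the genes with the smallest p against wild type whose window held a CHR core, all of which rose in Sox4 cells. Each is given 5′ to 3′ on the gene's own strand, with capitals marking every TTTGAA or TTCAAA (the CHR core on either strand) and every CCAAT or ATTGG (the CCAAT box on either strand). Sequences and positions are those of RefSeq on GRCm38.p6, and all 4 genes lie on the minus strand.
Mki67, chr7:135716380-135716579: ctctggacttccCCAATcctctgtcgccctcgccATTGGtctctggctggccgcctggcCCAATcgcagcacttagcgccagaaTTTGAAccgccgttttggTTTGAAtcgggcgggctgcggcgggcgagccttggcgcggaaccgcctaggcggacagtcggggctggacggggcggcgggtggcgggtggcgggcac
Racgap1, chr15:99651646-99651856: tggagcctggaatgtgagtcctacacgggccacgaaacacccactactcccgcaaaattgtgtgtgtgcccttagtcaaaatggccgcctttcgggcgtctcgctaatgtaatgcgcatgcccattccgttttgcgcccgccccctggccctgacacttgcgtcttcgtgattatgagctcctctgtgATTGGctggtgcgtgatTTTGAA
Kif23, chr9:61946792-61946999: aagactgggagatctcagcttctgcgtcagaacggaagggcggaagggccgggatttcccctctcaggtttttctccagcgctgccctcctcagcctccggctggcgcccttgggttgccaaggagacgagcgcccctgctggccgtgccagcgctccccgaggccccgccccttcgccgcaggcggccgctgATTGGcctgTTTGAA
Top2a, chr11:99024190-99024389: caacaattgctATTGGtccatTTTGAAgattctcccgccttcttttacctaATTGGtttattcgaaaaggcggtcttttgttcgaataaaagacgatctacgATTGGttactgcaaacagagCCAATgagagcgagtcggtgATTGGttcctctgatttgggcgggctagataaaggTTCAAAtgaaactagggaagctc
The Racgap1 stretch ends 11 bases and the Kif23 stretch 8 bases into the transcript, and the other two end just before the start. In Racgap1 and Kif23 a single CCAAT box and a single CHR core sit side by side at the start: counted from the first transcribed base as 0, the box began at -12 and -7 and the core at 5 and 2. Mki67 held 2 CHR cores, at -116 and -98, after 3 CCAAT boxes. Top2a held CHR cores at -179 and -23, with several CCAAT boxes between them.

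RefSeq promoter windows, from 250 bases before to 50 bases after the start, were at hand for 43 of the 49 genes, with 47 windows. A CHR core was present in 34 of the 47 windows (72.3%), against 17.9% of all 32851 windows of that length. A CCAAT box was present in 37 windows (78.7%), against 37.4% of all. Both stood in 30 windows (63.8%), against 6.95% of all. An E2F site (TTTCGCGC or TTTGGCGC, or GCGCGAAA or GCGCCAAA on the other strand) was present in 2 windows (4.26%), those of Cdk1 and Ncapd2, against 0.813% of all. By gene, a CHR core was present in 32 of the 43 genes and a CCAAT box in 33. Matches were counted per window, so a site in overlapping windows of 1 gene, as in Ect2 and Prc1, counts more than once. Of the 44 CHR core matches so counted, 32 began no further than 30 bases before the start or lay after it. The 79 CCAAT box matches were mostly further upstream, with 61 of them beginning more than 30 bases before the start. These are matches of letters and not measured binding sites.

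**Figure D1:**
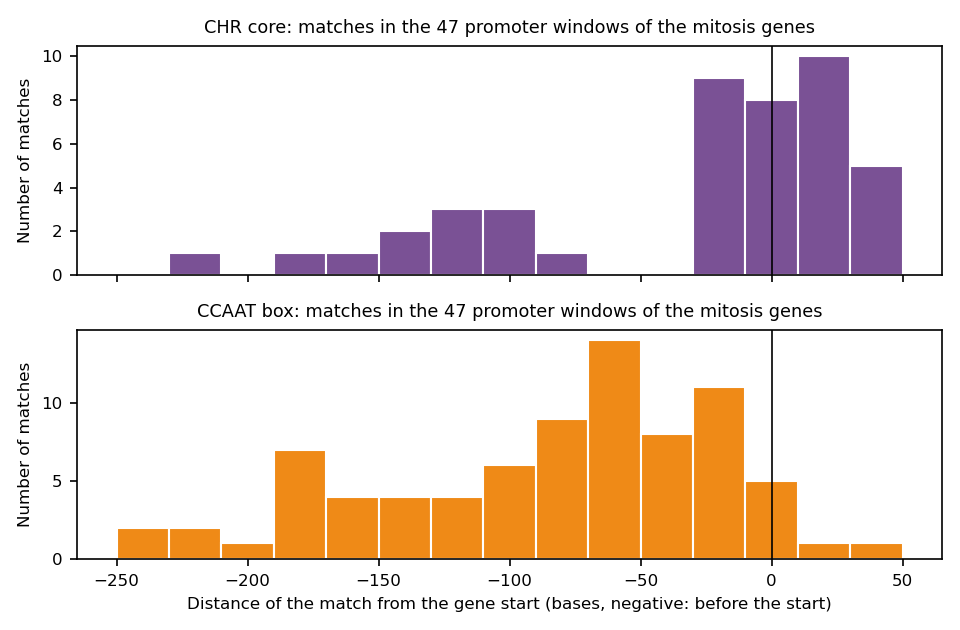
Number of matches (vertical axis) by distance in bases from the gene start (horizontal axis, negative before the start) in the 47 promoter windows, for the CHR core (upper panel, 44 matches) and the CCAAT box (lower panel, 79 matches). Matches are counted per window, so a site in overlapping windows of a gene counts more than once. The CHR core matches gather at the start, where 32 of 44 lie, and the CCAAT box matches spread upstream of it.

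The deposited values are intensities, used here as log2. Levels below are mean log2 intensity ± SD over the 3 arrays of a group; changes are differences of those means ± the standard error (SE) of a limma fit to all 9 arrays, with Benjamini-Hochberg adjusted p over the 12826 genes and a threshold of 0.05. A change of 1 is a doubling. For the second and other probe sets of a gene, adjusted p comes from a separate fit. It is adjusted over all probe sets with 1 symbol that passed the same filter. Where a brighter probe set or the mean of all probe sets is used in place of the main one, it is over the genes of that fit. Replicate arrays correlated at 0.991 to 0.993 over the tested genes, except that wild type array 3 stood a little apart from the other two wild type arrays (0.979 and 0.977). Sox4 itself had a level of 3.87 ± 0.08 in wild type, 9.74 ± 0.13 in the Sox4 group and 10.67 ± 0.18 in the K/L group (n = 3 each). Of the sort markers, Kit and Ptprc (CD45) lay above the 40th percentile on every array, as did Mpo, which is not part of the sort. Itgam (Mac1) did so on some but not all wild type arrays and on no leukaemic array. Ly6a (Sca-1) had no probe set with 1 symbol.

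The groups also differed in markers of other cells. Summed intensities of 6 late neutrophil markers on the arrays, among them S100a8 and Camp, ranged from 15109 to 20509 on the wild type arrays, from 3836 to 4079 on the Sox4 arrays and from 186 to 310 on the K/L arrays; 4, 5 and 2 of the 6 lay above the 40th percentile on all arrays of the group. The 5 monocyte markers summed to 2244 to 2471, 7896 to 8667 and 3986 to 4996, with all 5 above that percentile in every group. The 8 erythroid markers on the arrays summed to 234 to 298, 1273 to 1378 and 260 to 290, with 3, 5 and 4 above it, and Slc4a1 and Epor above it on no array. The 6 megakaryocyte markers summed to 275 to 318, 1318 to 2118 and 208 to 223, with 3, 5 and 2 above it. The 5 mast cell and basophil markers summed to 1164 to 1762, 2080 to 2760 and 5839 to 6437, with 4, 4 and 3 above it. The 4 B cell markers summed to 173 to 196, 397 to 485 and 363 to 393, with 1, 1 and 2 above it and Ms4a1 above it on no array. The 6 T and NK markers summed to 183 to 189, 195 to 199 and 194 to 215, with 2, 3 and 4 above it and Cd3g and Ncr1 above it on no array. The 3′ to 5′ intensity ratio of the Gapdh control probe sets, a sign of RNA integrity, was 2.677 to 2.909 on the wild type arrays, 2.219 to 2.442 on the Sox4 arrays and 1.93 to 2.005 on the K/L arrays, while that of actin overlapped between the groups (0.885 to 0.976, 0.881 to 0.915 and 0.866 to 0.913). The part of these differences in the results below was not tested. In sorted bulk samples, fewer dividing cells and less RNA per cell cannot be told apart.

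In Sox4 leukaemic cells the mitosis genes were mostly higher than in wild type. Adjusted p passed the threshold for 26 higher genes of 48 (54.2%) and for 1 lower gene, Kif20b (2.08%), against 26.7% higher and 21.1% lower over all genes tested. The median change was 0.31, with a range of -0.37 to 1.64, against 0.03 for all genes, and 40 of 48 changes were positive. All 3 Sox4 arrays lay above all 3 wild type arrays for 30 genes and below them for 2, against 31.1% and 25.1% of all genes. In 4 genes, Incenp, Mki67, Aurkb and Racgap1, the rise was over 2-fold.

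K/L leukaemic cells showed no such lean. There 14 of 48 genes were higher (29.2%) and 8 lower (16.7%), against 29.0% and 21.6% over all genes tested, so both shares were near the background. The median change was -0.01, with a range of -0.69 to 1.36, against 0.06 for all genes. The arrays did not overlap for 14 genes above and 11 below wild type, against 33.0% and 25.1% of all genes. Only Incenp rose over 2-fold, and its brightest probe set, which was not the one used, gave a rise of 0.94. Where the mean of all probe sets of a gene was taken in place of 1 probe set, the split turned to 9 higher and 14 lower.

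Set directly against Sox4 cells, K/L cells were lower in 26 of 48 genes (54.2%) and higher in none, against 14.0% lower and 14.9% higher over all genes tested; at an unadjusted p under 0.05 the counts were 32 lower and 1 higher. The median difference was -0.34, with a range of -0.73 to 0.35, against 0.03 for all genes. All 3 K/L arrays lay below all 3 Sox4 arrays in 36 genes and above them in 2, against 23.8% and 27.3% of all genes. With arrays centred on their medians, the counts were 18 lower and 1 higher (Ncapd2), and the share of higher genes among all calls moved from 51.5% to 63.6%. The count of lower genes was 16 without Sox4 array 2, 15 without K/L array 1, 14 without K/L array 3 and 32 without wild type array 3, where 2 were higher. The comparisons share arrays: both leukaemias were set against the same 3 wild type arrays, and the third comparison uses both leukaemic groups again.

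**Figure D2:**
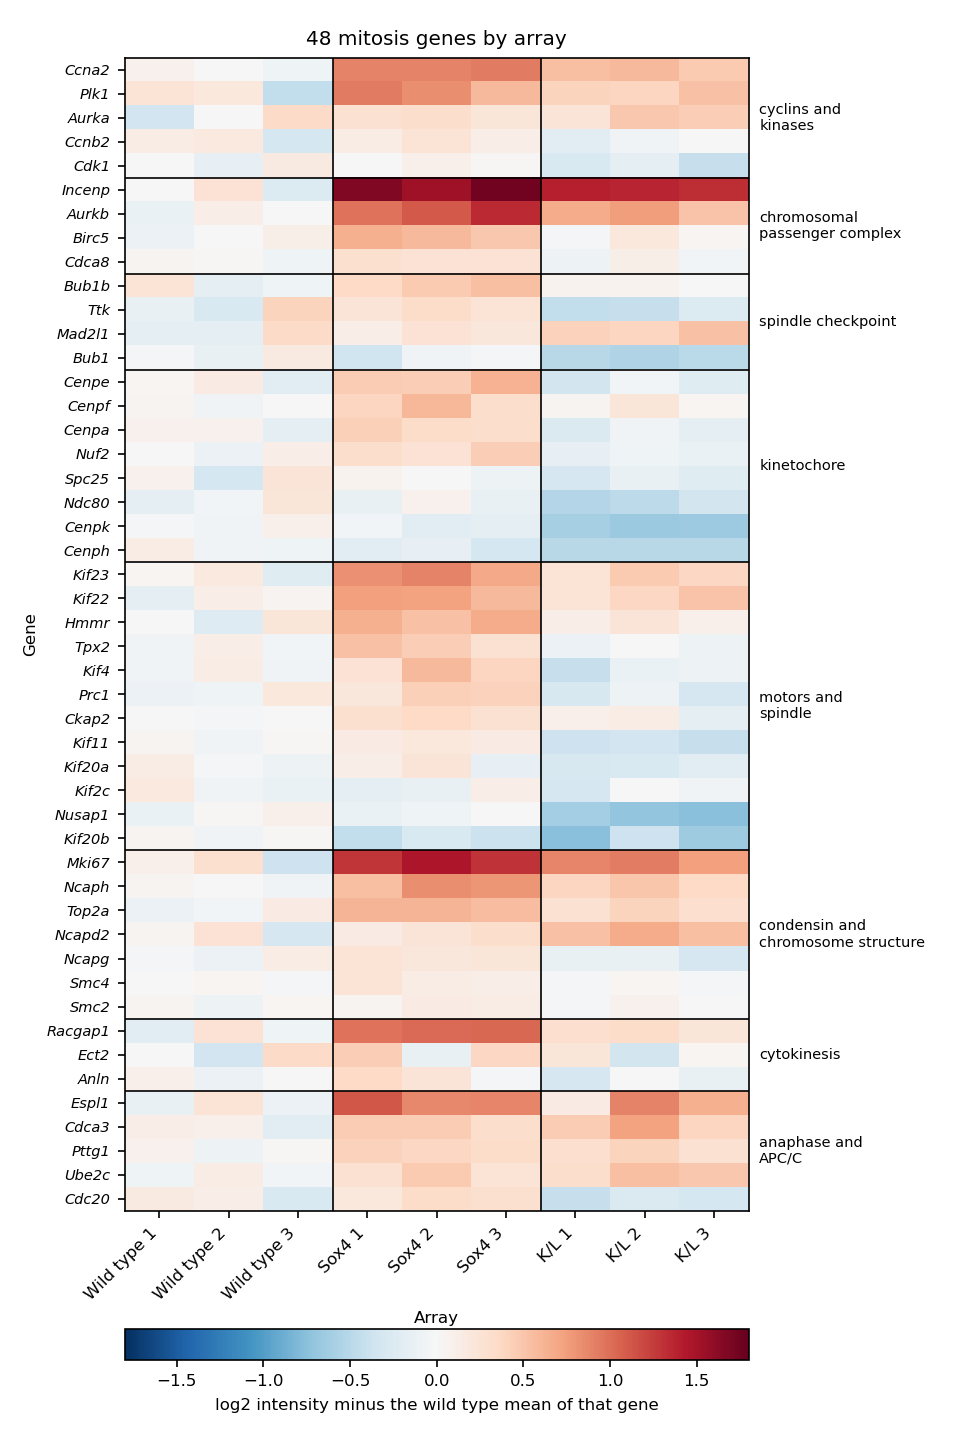
Each of the 48 genes (rows, grouped by role) on each of the 9 arrays (columns); the colour is log2 intensity minus the wild type mean of that gene. The Sox4 columns are mostly red, with Incenp and Mki67 the darkest rows, while the K/L columns hold red rows (Incenp, Mki67, Aurkb) and blue rows (Nusap1, Cenpk, Kif20b).

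The position of the whole list was alike on the arrays of a group. Over the 48 genes, the median difference from the wild type mean was 0.29, 0.33 and 0.3 on the Sox4 arrays, with 40, 41 and 39 genes above that mean. On the K/L arrays it was -0.02, 0.05 and -0.02, with 22, 27 and 23 genes above. With arrays centred on their medians, the K/L values were 0.06, 0.14 and 0.09, and the Sox4 values 0.29, 0.35 and 0.32.

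**Figure D3:**
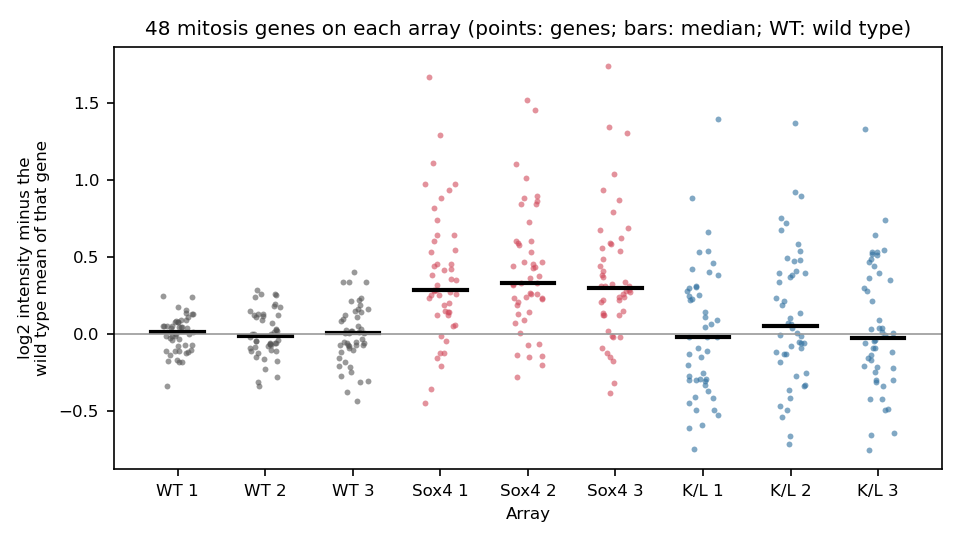
Difference of each gene's log2 intensity from its wild type mean (vertical axis) on each of the 9 arrays (horizontal axis); points are the 48 genes and bars their median on that array. Sox4 medians lie at 0.29 to 0.33, and K/L medians lie at -0.02 to 0.05 with genes spread to both sides.

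Of 5 cyclins and mitotic kinases, 2 rose in Sox4 cells, and 1 rose and 1 fell in K/L cells. Ccna2 encodes cyclin A2, which pairs with Cdk2 and Cdk1 from S phase into mitosis. It measured 10.25, 10.17 and 10.1 on the wild type arrays, 11.06, 11.06 and 11.11 on the Sox4 arrays, and 10.71, 10.76 and 10.64 on the K/L arrays. The 3 groups did not overlap: Sox4 arrays were highest and K/L arrays lay between. The rise was 0.9 ± 0.09 in Sox4 cells (adjusted p = 2.39e-05) against 0.52 ± 0.09 in K/L cells (adjusted p = 0.000734), and K/L fell below Sox4 by 0.38 ± 0.09 (adjusted p = 0.00928).

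Cdk1, the kinase whose activity starts mitosis, did not follow Ccna2. Its values were 10.1, 9.96 and 10.27 on the wild type arrays, 10.1, 10.2 and 10.13 on the Sox4 arrays and 9.84, 9.93 and 9.69 on the K/L arrays. Sox4 and wild type arrays overlapped (change 0.03 ± 0.11, adjusted p = 0.829), and every K/L array was below both. K/L cells fell by 0.29 ± 0.11 against wild type (adjusted p = 0.0472) and by 0.33 ± 0.11 against Sox4 cells (adjusted p = 0.0493). These 2 calls are at the edge of the threshold, and 11 and 10 of 18 other settings lost them. Plk1, the kinase of spindle assembly and mitotic exit, rose in Sox4 cells from 6.51 ± 0.38 to 7.29 ± 0.18 (0.79 ± 0.18, adjusted p = 0.00465) and stood at 6.95 ± 0.08 in K/L cells (0.44 ± 0.18, adjusted p = 0.0628). Aurka, the centrosomal Aurora kinase, and Ccnb2 (cyclin B2) passed in no comparison, with Aurka at 8.79 ± 0.34, 9.06 ± 0.05 and 9.18 ± 0.13 and Ccnb2 at 9.79 ± 0.27, 9.95 ± 0.06 and 9.71 ± 0.11 in the wild type, Sox4 and K/L groups.

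The chromosomal passenger complex corrects faulty attachments at the centromere and later acts at the midzone of the dividing cell. Its genes rose in Sox4 cells in 4 of 4, against 26.7% of all genes. In K/L cells 2 of 4 rose (50%), against 29.0%. Incenp, the scaffold that binds and activates Aurora B, measured 8.67, 8.94 and 8.43 on the wild type arrays, 10.35, 10.2 and 10.42 on the Sox4 arrays and 10.08, 10.05 and 10.01 on the K/L arrays. The leukaemic arrays all lay well above the wild type arrays. It rose 3.11-fold in Sox4 cells (1.64 ± 0.13, adjusted p = 6.69e-06), against 2.58-fold in K/L cells (1.36 ± 0.13, adjusted p = 2.09e-05). The probe sets of Incenp differed: 3 of its 5 rose in both leukaemias, while the other 2 gave -0.68 ± 0.13 and -0.42 ± 0.14 in K/L cells and -0.3 ± 0.13 and -0.52 ± 0.14 in Sox4 cells, all past the threshold but the -0.3. With the mean of its probe sets the changes were 0.57 in Sox4 and 0.39 in K/L cells.

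Aurkb, the catalytic kinase of the complex, measured 7.97, 8.2 and 8.09 on the wild type arrays, 9.06, 9.19 and 9.43 on the Sox4 arrays and 8.75, 8.84 and 8.6 on the K/L arrays. Its groups were apart, in the same order as for Ccna2. The rise was 1.14 ± 0.12 in Sox4 cells (adjusted p = 4.56e-05) against 0.65 ± 0.12 in K/L cells (adjusted p = 0.00155), and K/L lay below Sox4 by -0.49 ± 0.12 (adjusted p = 0.013). Birc5 (survivin) and Cdca8 (borealin), which bring the complex to the centromere, rose in Sox4 cells by 0.57 ± 0.1 and 0.27 ± 0.09, and differed from wild type by 0.07 ± 0.1 and -0.01 ± 0.09 in K/L cells. Both were lower in K/L than in Sox4 cells, by -0.5 ± 0.1 (adjusted p = 0.00472) and -0.28 ± 0.09 (adjusted p = 0.0421).

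Of 4 spindle checkpoint genes, Sox4 cells showed 1 rise, and K/L cells 1 rise and 1 fall (25% each). These shares were near those of all genes (26.7% higher in Sox4 cells, 29.0% higher and 21.6% lower in K/L cells). K/L cells were lower than Sox4 cells in 3 (75%), against 14.0% of all genes. Bub1, a kinase that gathers checkpoint proteins at the kinetochore, measured 8.73, 8.64 and 8.93 on the wild type arrays, 8.41, 8.7 and 8.75 on the Sox4 arrays and 8.27, 8.23 and 8.28 on the K/L arrays. The K/L arrays were below all others, and the other two groups overlapped. It fell in K/L cells by 0.51 ± 0.12 (adjusted p = 0.00533), and the change in Sox4 cells was -0.14 ± 0.12 (adjusted p = 0.349). Mad2l1, part of the complex that inhibits the APC/C, went the other way in K/L cells, rising by 0.44 ± 0.14 (adjusted p = 0.023) from 9.46 ± 0.29 to 9.91 ± 0.08, with 9.66 ± 0.07 in Sox4 cells. Bub1b (BubR1), also of that complex, rose in Sox4 cells by 0.45 ± 0.12 (adjusted p = 0.0102) and not past the threshold in K/L cells (0.05 ± 0.12).

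Ttk (Mps1), the kinase that sets the checkpoint in motion, measured 8.32, 8.17 and 8.85 on the wild type arrays, 8.68, 8.78 and 8.69 on the Sox4 arrays and 8.0, 8.03 and 8.2 on the K/L arrays. Wild type array 3 was the highest of all, and the wild type values spread across both leukaemias. Neither change from wild type passed (0.27 ± 0.16 and -0.37 ± 0.16), while K/L lay below Sox4 by -0.64 ± 0.16 (adjusted p = 0.0143). A second, dimmer probe set of Ttk fell in K/L cells from 5.65 to 4.92 (by 0.72 ± 0.11, adjusted p = 0.000516). In Sox4 cells it gave 0.16 ± 0.11 (adjusted p = 0.289).

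Among 8 kinetochore genes, 4 rose (50%) and none fell in Sox4 cells, against 26.7% and 21.1% of all genes. In K/L cells 3 fell (37.5%) and none rose, against 21.6% and 29.0%. K/L cells were lower than Sox4 cells in 6 (75%), against 14.0%. The falls in K/L cells were in Cenpk and Cenph, subunits of the inner kinetochore network that sits on centromeric chromatin, and in Ndc80, which grips the microtubule. Cenpk measured 10.07, 10.03 and 10.18 on the wild type arrays, 10.05, 9.89 and 9.92 on the Sox4 arrays and 9.5, 9.43 and 9.44 on the K/L arrays, a fall of 0.64 ± 0.09 in K/L cells (adjusted p = 0.000277). Cenph measured 10.56, 10.37 and 10.35 on the wild type arrays, 10.22, 10.28 and 10.11 on the Sox4 arrays and 9.93 on each K/L array, a fall of 0.5 ± 0.09 (adjusted p = 0.0017). In both, the K/L arrays were below all 6 others. The changes of these genes in Sox4 cells were -0.14 ± 0.09 (adjusted p = 0.24) and -0.23 ± 0.09 (adjusted p = 0.0761). Ndc80 measured 9.1, 9.23 and 9.5 on the wild type arrays, 9.15, 9.35 and 9.15 on the Sox4 arrays and 8.75, 8.81 and 8.94 on the K/L arrays, where it fell by 0.45 ± 0.12 (adjusted p = 0.0127).

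The kinetochore genes that rose in Sox4 cells were Cenpe, Cenpf, Cenpa and Nuf2. Cenpe, a kinesin that carries chromosomes to the spindle equator, measured 9.46, 9.57 and 9.24 on the wild type arrays, 9.88, 9.86 and 10.05 on the Sox4 arrays and 9.09, 9.37 and 9.21 on the K/L arrays. Sox4 arrays were above all others, and K/L overlapped wild type. It rose by 0.51 ± 0.12 in Sox4 cells (adjusted p = 0.00609), and K/L lay below Sox4 by -0.71 ± 0.12 (adjusted p = 0.00164). A second probe set of Cenpe gave a rise of 0.47 ± 0.12 in Sox4 cells as well, a rise of 0.34 ± 0.12 in K/L cells, and a difference of only -0.13 ± 0.12 between the leukaemias. Cenpf, a large outer kinetochore protein, Cenpa, the centromeric histone, and Nuf2, the partner of Ndc80, rose in Sox4 cells by 0.43 ± 0.11, 0.36 ± 0.1 and 0.34 ± 0.1, and K/L cells were lower than Sox4 cells by -0.33 ± 0.11, -0.52 ± 0.1 and -0.46 ± 0.1. A second, dimmer probe set of Cenpa gave 0.06 ± 0.13 in Sox4 cells (adjusted p = 0.74). In K/L cells it fell by 0.76 ± 0.13 (adjusted p = 0.000728). Spc25, of the same complex as Ndc80, passed in no comparison, at 9.84 ± 0.28, 9.82 ± 0.08 and 9.61 ± 0.08 in the wild type, Sox4 and K/L groups. A second, dimmer probe set of Spc25 fell by 0.92 ± 0.12 in K/L cells (adjusted p = 0.000177) and by 0.87 ± 0.12 in Sox4 cells (adjusted p = 0.000284).

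Of 12 spindle and motor genes, 7 rose (58.3%) and 1 fell (8.33%) in Sox4 cells, against 26.7% and 21.1% of all genes. In K/L cells 2 rose (16.7%) and 3 fell (25%), against 29.0% and 21.6%, so the share of falls was near the background. The falls in K/L cells were led by Nusap1, which bundles microtubules around chromosomes. It measured 9.63, 9.76 and 9.84 on the wild type arrays, 9.62, 9.67 and 9.73 on the Sox4 arrays and 9.13, 9.03 and 8.99 on the K/L arrays. Wild type and Sox4 values overlapped (change -0.07 ± 0.09, adjusted p = 0.568), and all K/L values were below them. It fell in K/L cells to 0.618 of the wild type level (a fall of 0.69 ± 0.09, adjusted p = 0.000203). Kif20b, a kinesin of late cytokinesis, was the gene that fell in both leukaemias. Its values were 10.14, 10.03 and 10.12 on the wild type arrays, 9.65, 9.82 and 9.71 on the Sox4 arrays and 9.35, 9.73 and 9.45 on the K/L arrays, with every leukaemic array below every wild type array. The fall was 0.59 ± 0.11 in K/L cells (adjusted p = 0.00201) and 0.37 ± 0.11 in Sox4 cells (adjusted p = 0.0241). The call in Sox4 cells was lost in 3 of 18 other settings. A second probe set of Kif20b gave -0.01 ± 0.13 in Sox4 cells (adjusted p = 0.938). In K/L cells it gave -0.37 ± 0.13 (adjusted p = 0.0355). Kif11 (Eg5), the motor that pushes spindle poles apart, fell in K/L cells from 10.56 ± 0.07 to 10.18 ± 0.04 (by 0.38 ± 0.08, adjusted p = 0.00427), with 10.72 ± 0.03 in Sox4 cells.

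Kif23 and Kif22 rose in both leukaemias. Kif23, the motor subunit of the centralspindlin complex of the midzone, went from 9.25 ± 0.2 to 10.05 ± 0.1 in Sox4 cells (0.8 ± 0.12, adjusted p = 0.00045) and to 9.62 ± 0.12 in K/L cells (0.36 ± 0.12, adjusted p = 0.0311). Kif22, a chromosome-borne kinesin, went from 9.31 ± 0.15 to 10.0 ± 0.08 (0.69 ± 0.11, adjusted p = 0.000704) and to 9.69 ± 0.14 (0.38 ± 0.11, adjusted p = 0.0177). With a brighter probe set of Kif22 ending in _x_at, a class whose probes can match other transcripts, the changes were 0.25 and -0.11 and neither passed. Hmmr (0.62 ± 0.12), a spindle assembly factor, Tpx2 (0.42 ± 0.1), which activates Aurora A on the spindle, and Kif4 (0.41 ± 0.13), a chromosome-borne kinesin, rose in Sox4 cells and did not pass in K/L cells. The rise of Tpx2 rests on 1 of its probe sets: a second one of similar level gave 0.03 ± 0.1 in Sox4 cells (adjusted p = 0.823) and fell by 0.53 ± 0.1 in K/L cells (adjusted p = 0.00106). Both Tpx2 probe sets were lower in K/L than in Sox4 cells, by -0.48 and -0.56. Prc1, the microtubule bundler of the midzone, and Ckap2, a microtubule-associated protein, rose in Sox4 cells by 0.34 ± 0.12 and 0.31 ± 0.1, and differed from wild type by -0.23 ± 0.12 and 0.02 ± 0.1 in K/L cells.

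Kif4 measured 8.39, 8.59 and 8.4 on the wild type arrays, 8.72, 9.05 and 8.84 on the Sox4 arrays and 8.05, 8.34 and 8.37 on the K/L arrays. Each Sox4 array was above and each K/L array below the wild type range. K/L differed from wild type by -0.21 ± 0.13 (adjusted p = 0.206) and was lower than Sox4 by -0.62 ± 0.13 (adjusted p = 0.00482). K/L cells were lower than Sox4 cells in 7 of the 12 genes in all (58.3%, against 14.0% of all genes tested). These were Kif11, Kif4, Kif23, Tpx2, Prc1, Nusap1 and Hmmr. Kif20a, a kinesin of the midzone, and Kif2c, a motor that shortens microtubules at the centromere, passed in no comparison. Kif20a measured 10.21 ± 0.11, 10.27 ± 0.2 and 9.95 ± 0.05 and Kif2c 8.44 ± 0.15, 8.39 ± 0.16 and 8.33 ± 0.16 in the wild type, Sox4 and K/L groups; the brighter _x_at probe set of Kif2c gave -0.48 in K/L cells (adjusted p = 0.0051).

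**Figure D4:**
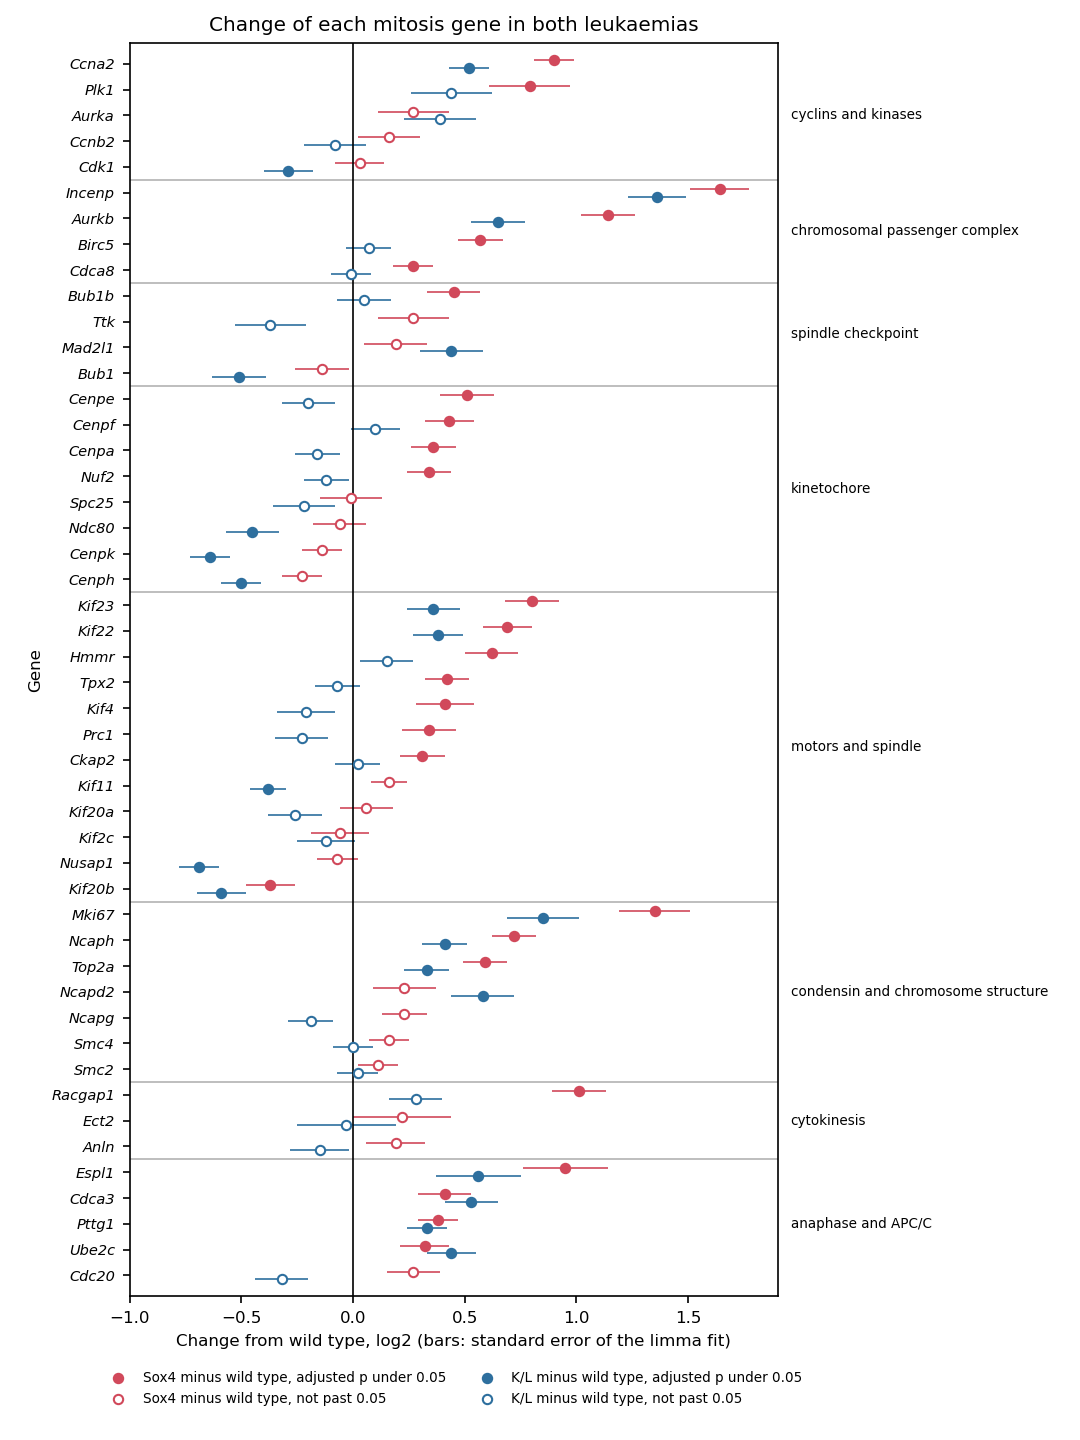
Change from wild type (horizontal axis, log2; bars are the SE of the limma fit) of each of the 48 genes (vertical axis, by role) in Sox4 cells (red) and K/L cells (blue); filled points passed an adjusted p of 0.05. Red points lie mostly right of 0, and blue points lie on both sides, with Nusap1 at -0.69 and Incenp at 1.36.

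Of 7 chromosome structure genes, 3 rose in Sox4 cells (42.9%), 4 rose in K/L cells (57.1%) and none fell. The shares of rises over all genes were 26.7% and 29.0%. K/L cells were lower than Sox4 cells in 3 (42.9%), against 14.0% of all genes. Mki67 encodes Ki-67, the coat of mitotic chromosomes and a common marker of dividing cells. It measured 11.32, 11.51 and 10.85 on the wild type arrays, 12.52, 12.68 and 12.53 on the Sox4 arrays and 12.11, 12.15 and 11.97 on the K/L arrays. No groups overlapped, and wild type array 3 was the lowest. It rose 2.55-fold in Sox4 cells (1.35 ± 0.16, adjusted p = 7.61e-05), against 1.8-fold in K/L cells (0.85 ± 0.16, adjusted p = 0.00138), and K/L lay below Sox4 by -0.5 ± 0.16 (adjusted p = 0.0367), a call that 8 of 18 other settings lost. Top2a, the topoisomerase that untangles sister chromatids, rose by 0.59 ± 0.1 (adjusted p = 0.000688) in Sox4 and by 0.33 ± 0.1 (adjusted p = 0.0172) in K/L cells. The condensin I subunit Ncaph rose by 0.72 ± 0.1 and 0.41 ± 0.1, and was lower in K/L than in Sox4 cells by -0.32 ± 0.1 (adjusted p = 0.046), a call lost in 10 of 18 other settings.

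Ncapd2, another condensin I subunit, had its highest values in K/L cells. It measured 9.38, 9.58 and 9.02 on the wild type arrays, 9.47, 9.56 and 9.64 on the Sox4 arrays and 9.86, 10.0 and 9.87 on the K/L arrays. The rise was 0.58 ± 0.14 in K/L cells (adjusted p = 0.00596), while Sox4 overlapped wild type (0.23 ± 0.14, adjusted p = 0.205); the leukaemias differed by 0.35 ± 0.14 (adjusted p = 0.0847). Its second probe set fell by 0.52 ± 0.15 in K/L cells. Ncapg, the third condensin I subunit, was lower in K/L than in Sox4 cells by -0.41 ± 0.1 (adjusted p = 0.0115) and passed in neither comparison with wild type. Smc2 and Smc4, the ATPase core of both condensins, measured 10.25 ± 0.08 and 12.58 ± 0.03 in wild type cells, 10.37 ± 0.05 and 12.74 ± 0.07 in Sox4 cells, and 10.27 ± 0.05 and 12.58 ± 0.04 in K/L cells. They passed in no comparison.

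Genes of anaphase and the APC/C rose in 4 of 5 (80%) in both leukaemias. Over all genes, 26.7% rose in Sox4 and 29.0% in K/L cells. Espl1, separase, which cuts cohesin, measured 7.09, 7.47 and 7.12 on the wild type arrays, 8.34, 8.09 and 8.1 on the Sox4 arrays and 7.37, 8.12 and 7.87 on the K/L arrays. K/L array 1 lay inside the wild type range and the other K/L arrays above it. The rise was 0.95 ± 0.19 in Sox4 cells (adjusted p = 0.00215) against 0.56 ± 0.19 in K/L cells (adjusted p = 0.0301, lost in 6 of 18 other settings). Pttg1, securin, which holds separase inactive, rose by 0.38 ± 0.09 and 0.33 ± 0.09. Ube2c, the ubiquitin-conjugating enzyme of the APC/C, rose by 0.32 ± 0.11 in Sox4 and 0.44 ± 0.11 in K/L cells.

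Cdca3, which is degraded through the APC/C and promotes entry into mitosis, measured 8.6, 8.58 and 8.28 on the wild type arrays, 8.94, 8.94 and 8.8 on the Sox4 arrays and 8.95, 9.21 and 8.88 on the K/L arrays. Both leukaemias lay above wild type and overlapped each other, with rises of 0.41 ± 0.12 (adjusted p = 0.0213) and 0.53 ± 0.12 (adjusted p = 0.00586). Cdc20, the activator of the APC/C in mitosis, measured 8.86, 8.82 and 8.43 on the wild type arrays, 8.89, 9.03 and 8.99 on the Sox4 arrays and 8.29, 8.45 and 8.39 on the K/L arrays. It was the gene of this role that did not pass against wild type (0.27 ± 0.12, adjusted p = 0.103, and -0.32 ± 0.12, adjusted p = 0.053). K/L lay below Sox4 by -0.59 ± 0.12 (adjusted p = 0.00562). With its brighter _x_at probe set, Cdc20 passed as lower in K/L cells (-0.32, adjusted p = 0.0241) and not in Sox4 cells (0.26, adjusted p = 0.0624). With the mean of its probe sets it passed as higher in Sox4 cells (0.34, adjusted p = 0.0322) and not in K/L cells (-0.26, adjusted p = 0.0805).

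In cytokinesis, 1 of 3 genes rose in Sox4 cells (33.3%, near the 26.7% of all genes) and none in K/L cells (against 29.0%). Racgap1, the partner of Kif23 in centralspindlin, measured 7.85, 8.29 and 7.96 on the wild type arrays, 9.01, 9.05 and 9.07 on the Sox4 arrays and 8.33, 8.37 and 8.25 on the K/L arrays. Sox4 arrays were far above the others, and K/L arrays reached into the wild type range. It rose 2.01-fold in Sox4 cells (1.01 ± 0.12, adjusted p = 8.64e-05), changed by 0.28 ± 0.12 in K/L cells (adjusted p = 0.0745), and was lower in K/L than in Sox4 cells by -0.73 ± 0.12 (adjusted p = 0.0013). Ect2, the exchange factor that Racgap1 activates, measured 7.41 ± 0.34, 7.63 ± 0.32 and 7.39 ± 0.28, and Anln (anillin), a scaffold of the contractile ring, 7.76 ± 0.1, 7.95 ± 0.19 and 7.61 ± 0.15 in the wild type, Sox4 and K/L groups; neither passed in any comparison.

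**Figure D5:**
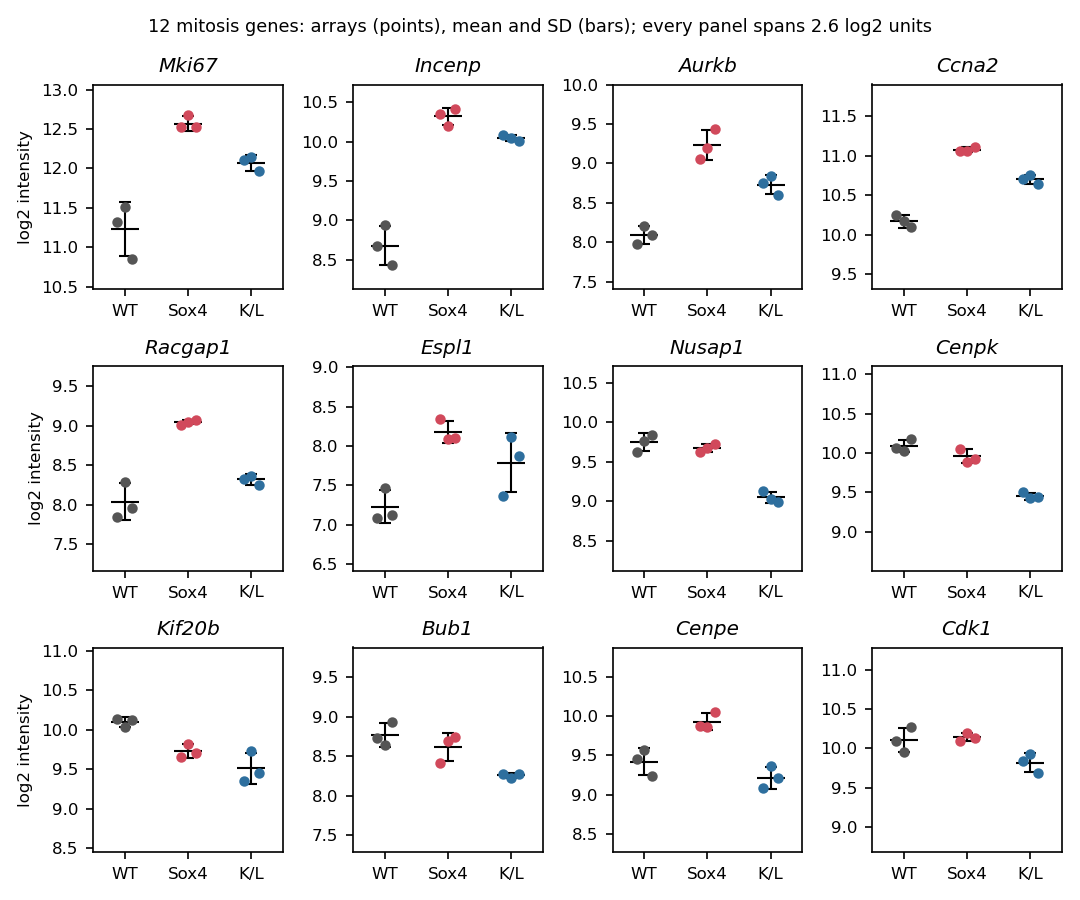
Log2 intensity (vertical axes, each spanning the same width) of 12 of the genes in wild type (WT), Sox4 and K/L cells; points are arrays, and bars are mean and SD (n = 3). Mki67, Aurkb and Ccna2 stand highest in Sox4 cells with K/L between, while Nusap1, Cenpk and Bub1 are lowest in K/L cells with Sox4 near wild type.

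The choice of probe set matters for part of the list. Of the 48 genes, 31 had several tested probe sets, and all of them gave the same sign in 18 genes for K/L against wild type, in 26 for Sox4 against wild type and in 28 for K/L against Sox4. A probe set that passed in the opposite direction existed for 6 genes in K/L cells (Incenp, Cenpe, Hmmr, Ncapd2, Smc2 and Pttg1), for 2 in Sox4 cells (Incenp and Smc2), and for none between the leukaemias. In Smc2 it was 1 of 5 probe sets, which fell by 1.56 ± 0.13 in K/L and by 0.85 ± 0.13 in Sox4 cells. With the mean of all probe sets in place of 1, the calls of 6 genes in K/L cells were lost (Cdca3, Kif22, Kif23, Ncapd2, Pttg1 and Top2a), those of 6 were gained (Aurka, Cenpa, Kif2c, Spc25, Tpx2 and Ttk), and Smc2 passed as lower. In Sox4 cells the calls of Cdca8, Cenpa, Pttg1 and Tpx2 were lost and those of Cdc20, Cenpk, Ncapg and Spc25 gained. Between the leukaemias, Cenpf and Cenpk were lost, and Cenph, Ckap2, Kif22 and Smc2 gained.

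Other calls that at least 7 of the 18 settings lost, beside those of Cdk1, Mki67 and Ncaph, were those of Cdca8 and Prc1 in Sox4 cells (7 each) and, between the leukaemias, those of Ndc80 (10), Bub1 (9), Cdca8 (8) and Cenpf (7).

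Other genes of the same process were taken from lists of 103 genes: regulators of G2 and M phase transcription and entry, other mitosis machinery, and cohesin, with 101 tested. Their values are from 1 probe set each, and agreement between probe sets was counted only for the 48 genes above. Of the 101, in Sox4 cells 38 were higher (37.6%) and 13 lower (12.9%), against 26.7% and 21.1% of all genes tested. In K/L cells 30 were higher (29.7%) and 25 lower (24.8%), near the 29.0% and 21.6% of all genes. Set directly against Sox4 cells, K/L cells had 4 higher (3.96%) and 22 lower (21.8%), where all genes gave 14.9% and 14.0%. Among 29 regulators, 14 rose (48.3%) and 5 fell (17.2%) in Sox4 cells; 12 rose (41.4%) and 6 fell (20.7%) in K/L cells, the falls near the share over all genes. Mybl2 (B-Myb), which activates the G2 and M genes through the CHR, measured 5.54, 5.64 and 5.31 on the wild type arrays, 8.16, 7.87 and 7.95 on the Sox4 arrays and 7.4, 7.53 and 7.41 on the K/L arrays. Its groups did not overlap. It rose 5.65-fold in Sox4 cells (2.5 ± 0.12, adjusted p = 2.22e-07), against 3.86-fold in K/L cells (1.95 ± 0.12, adjusted p = 9.2e-07), and K/L was lower than Sox4 by -0.55 ± 0.12 (adjusted p = 0.00604).

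Foxm1, the forkhead activator of the same genes, measured 6.48, 6.77 and 5.76 on the wild type arrays, 7.93, 7.76 and 7.63 on the Sox4 arrays and 7.38, 7.32 and 7.66 on the K/L arrays. The leukaemic arrays were above all wild type arrays and overlapped each other. The rise was 1.44 ± 0.23 in Sox4 (adjusted p = 0.000543) against 1.11 ± 0.23 in K/L cells (adjusted p = 0.00244), but its brighter _x_at probe set gave 0.36 (adjusted p = 0.136) and 0.08 (adjusted p = 0.766). E2f1, an activator of S phase genes, rose from 8.55 ± 0.2 to 9.07 ± 0.09 in Sox4 and to 9.17 ± 0.06 in K/L cells (changes of 0.52 ± 0.12 and 0.62 ± 0.12). The repressors E2f8 and E2f7 rose as well, E2f8 by 2.14 ± 0.16 and 1.79 ± 0.16, and E2f7 by 2.08 ± 0.17 in Sox4 and by 0.64 ± 0.17 in K/L cells.

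E2f2, an activating E2F, stood apart between the leukaemias. It measured 5.79, 6.51 and 5.66 on the wild type arrays, 7.62, 8.15 and 7.88 on the Sox4 arrays and 5.45, 5.27 and 5.69 on the K/L arrays. It rose in Sox4 cells by 1.9 ± 0.23 (adjusted p = 9.06e-05), overlapped wild type in K/L cells (-0.52 ± 0.23, adjusted p = 0.0813), and was lower in K/L than in Sox4 cells by -2.42 ± 0.23 (adjusted p = 3.07e-05). Pkmyt1, the kinase that holds Cdk1 inactive, rose by 1.48 ± 0.13 and 1.06 ± 0.13, and E2f4, a subunit of the repressor complexes of resting cells, by 1.04 ± 0.1 and 0.76 ± 0.1. Tfdp2, a dimer partner of the E2F proteins, fell by 1.11 ± 0.1 in Sox4 and by 0.72 ± 0.1 in K/L cells.

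Among 60 other machinery genes, 22 rose (36.7%) and 7 fell (11.7%) in Sox4 cells, against 26.7% and 21.1% of all genes tested. In K/L cells 16 rose and 16 fell (26.7% each), near the 29.0% and 21.6% of all genes. Between the leukaemias, 1 was higher (1.67%) and 16 lower (26.7%) in K/L cells, against 14.9% and 14.0%. Cenpm, an inner kinetochore subunit, rose by 1.75 ± 0.11 in Sox4 (adjusted p = 1.7e-06) against 1.36 ± 0.11 in K/L cells (adjusted p = 8.42e-06), while Cenpc1, the centromere protein on which that network is built, fell by 0.48 ± 0.08 and 0.72 ± 0.08 (adjusted p = 0.00109 and 7.72e-05). Mad1l1, which recruits Mad2 to kinetochores, rose by 0.87 ± 0.1 and 0.81 ± 0.1, and Kifc1, a motor that focuses spindle poles, by 0.81 ± 0.11 and 0.59 ± 0.11. Knl1, the kinetochore platform for Bub1, rose in Sox4 cells by 0.79 ± 0.12 and was lower in K/L than in Sox4 cells by -0.58 ± 0.12 (adjusted p = 0.00608). Cep55, which acts in the final cut between daughter cells, did likewise, with 0.68 ± 0.12 and -0.63 ± 0.12 (adjusted p = 0.00301).

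Cohesin is the ring that holds sister chromatids together, and of 12 of its genes 2 rose (16.7%) and 1 fell (8.33%) in Sox4 cells, and 2 rose (16.7%) and 3 fell (25%) in K/L cells. The falls in K/L cells were near the 21.6% of all genes, and the other shares were below those of all genes. Smc3, a ring subunit, rose by 0.6 ± 0.11 and 0.56 ± 0.11, while Smc1a, its partner, differed from wild type by 0.22 ± 0.09 (adjusted p = 0.0761) and 0.15 ± 0.09 (adjusted p = 0.202). Wapl, which opens the ring, fell by 0.27 ± 0.09 and 0.23 ± 0.09. Pds5a, a regulator bound to the ring, fell in K/L cells by 0.34 ± 0.09, and Stag2, a ring subunit, by 0.55 ± 0.19. Esco2, the acetyltransferase that locks cohesin in S phase, rose in Sox4 cells by 0.98 ± 0.27 (adjusted p = 0.0118), with 0.61 ± 0.27 in K/L cells (adjusted p = 0.0831).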

How the data were processed

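Total RNA (5 ug) was labelled as biotin cRNA and hybridised, per the labels' protocols. The authors deposited intensity values on a linear scale for 45101 probe sets on 9 arrays, with a floor of 8; the submitters' processing notes name RMA, version and settings not given in the sources used here. Values were log2 transformed and not rescaled. Array medians lay between 5.43 and 5.55, and 4.86 to 5.57 percent of probe sets of an array were at the floor; with arrays, 3 samples a group limit the precision.

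Symbols came from the array's 2016 annotation, for probe sets with exactly 1 symbol (34958; 932 had several and 9211 none). Each gene took its probe set of highest mean over the 9 arrays, with _x_at probe sets used if a gene had no other; allowing them changes the probe set of 4 listed genes (Incenp, Kif2c, Kif22 and Cdc20). Genes above the 40th percentile of the array on at least 3 arrays were tested with limma 3.58.1 in R 4.3.3 (lmFit and eBayes, 3 groups in 1 fit, 6 residual and 3.71 prior degrees of freedom), and the code was tested on simulated data. No permutation test is given, since 3 against 3 arrays cannot reach the threshold. The same-numbered arrays of different groups did not deviate together. Promoter sequences are RefSeq's on GRCm38.p6.

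The listed genes, the other lists and the alternatives were chosen with earlier results of these data known. Among genes past the threshold, values on every array are given for the 6 that rose most and the 6 that fell most in each comparison. They are also given for the gene of smallest p in each role, Mki67 and Cdk1. From the other lists, the genes named are among up to 4 of smallest p per list and comparison, with Foxm1, Mybl2 and E2f1. Not every gene so picked is named, and array values are given only for Mybl2, Foxm1 and E2f2. Alternatives changed the scaling, the filter, the probe set, the fit and the arrays, 18 in all for each gene; that allowing _x_at was added after seeing the data. No list was tested as a set.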

Additional observations from a re-analysis of the deposited data

Results flagged for a closer look

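In 9 of the 48 genes the changes from wild type had opposite signs in the leukaemias, with at least 1 of them past the threshold, and the test of the difference itself passed (limma, K/L minus Sox4, adjusted p under 0.05). All 9 (18.8%) were lower in K/L than in Sox4 cells; of all genes tested, 4.58% met the same rule as lower and 4.85% as higher. Kif11 differed by -0.54, with -0.38 in K/L cells, where it fell, and 0.16 in Sox4 cells. Cdk1 differed by -0.33, with -0.29 and 0.03. The other 7 rose in Sox4 cells and had negative changes in K/L cells that did not pass. Of these, Cenpe differed by -0.71, Cenpa by -0.52 and Nuf2 by -0.46 at the kinetochore. Kif4 differed by -0.62, Prc1 by -0.57 and Tpx2 by -0.48 on the spindle. A second probe set of Cenpe rose in K/L cells (0.34, adjusted p = 0.032) and differed by only -0.13 between the leukaemias, and with the mean of its probe sets the change in K/L cells was 0.07. The second probe set of Prc1 gave 0.04 in K/L cells, and that of Tpx2 fell there by 0.53 (adjusted p = 0.00106) without a rise in Sox4 cells. Cdca8 differed by -0.28, with a change in K/L cells of only -0.01. The calls of Cdk1 and Cdca8 between the leukaemias were lost in 10 and 8 of 18 other settings. These 9 were picked out by their values, and the comparisons share arrays.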

How the results depend on the processing

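Under other settings, 2358 changes of single listed genes kept direction and side of the threshold, 156 lost and 76 gained the call, and 2 reversed: Smc2 in K/L cells at -0.35 (adjusted p = 0.0113) averaged over its probe sets, and Kif22 in K/L cells at -0.11 (adjusted p = 0.415) with _x_at probe sets allowed. Calls held under all 18 settings for 13 of 22 genes in K/L against wild type, 15 of 27 in Sox4 against wild type and 12 of 26 in K/L against Sox4.

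With the mean of all probe sets, 9 listed genes were higher and 14 lower in K/L cells; in Sox4 cells 3 were lower. There 2 were lower with no filter or with an intensity trend in the fit. Between the leukaemias, 1 gene was higher with arrays centred, and 2 with only the compared groups fitted; the other lists had 16 and 41 calls there, against 26. In the 150-base promoter window, 1 E2F site was left. The cause was not tested.

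Leaving out each array in turn gave, for the listed genes, 10 to 15 rises and 7 to 10 falls in K/L cells, 20 to 28 higher and 0 to 2 lower in Sox4 cells, and 0 to 2 higher and 14 to 32 lower between the leukaemias. The other lists had 42 to 53, 39 to 50 and 11 to 38 calls, and all genes 5595 to 6653, 5224 to 6343 and 2786 to 4754.

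Replicate numbers do not pair the arrays (correlations of same-numbered deviations from -0.02 to 0.08). With the replicate block, 14 listed genes rose and 7 fell in K/L cells, 25 and 1 in Sox4 cells, and 0 and 22 between the leukaemias; calls numbered 51, 52 and 20 in the other lists and 6369, 5999 and 3503 over all genes.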
